A study of Mus musculus with 8 samples.

Results

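Chromatin accessibility was described at the loci of 41 genes of glycolysis and of the hypoxia response in BMDMs (bone marrow-derived macrophages) of C57BL/6 mice. ATAC-seq, in which a transposase cuts open DNA, was read as raw tags per peak in 8 libraries. A peak was counted as a member when the authors' annotation assigned it to 1 of the 41 genes and placed it at most 100 kb from that gene's TSS (transcription start site). By this rule, the WT table held 39 member peaks (of 9698) and 93 (of 24867) were in the NCoR f/f table. The 39 WT peaks lay at 26 of the 41 genes, of 6598 genes with such a peak in that table, and the 93 NCoR f/f peaks lay at 40 genes, of 12056.

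The WT table held 6 libraries of wild type BMDMs at 6 h, of which 2 were Veh, 2 were KLA and 2 were RGFP966 + KLA. KLA is Kdo2-lipid A, an agonist of the receptor TLR4, and RGFP966 is an inhibitor of the deacetylase HDAC3. The titles of the third pair of libraries name RGFP966 while their treatment entry names only KLA, and they are given here as RGFP966 + KLA. The NCoR f/f table held 2 Veh libraries at 6 h from mice with flox/flox alleles of the corepressor NCoR1, whose labels name no Cre. The peaks of that table were merged from sets of NCoR f/f and of NCoR knockout cells, each at Veh and KLA. By the study's methods the mice were adults, cells were starved of serum before KLA, and RGFP966 was added with the starvation. Neither the labels nor the methods say whether the libraries of a pair came from separate mice or cultures. The p-values thus measure only the spread between these libraries, which may be technical and which the test pools over all peaks or loci.

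The depth was low. The WT libraries held 116733 to 202523 tags in peaks, which was 1.40% to 2.06% of all their tags, with a median of 10 to 17 tags per peak. For NCoR f/f the totals in peaks were 372367 and 509741 tags, with medians of 12 and 16. Levels are therefore given as tags per 10000 tags in peaks of the same library, beside the tags. Each table has its own set of peaks and its own library date, and WT was therefore not tested against NCoR f/f. Of 10 macrophage marker genes, 6 had a WT peak, among them the growth factor receptor Csf1r and Cd68, and all 10 had an NCoR f/f peak. Spi1, Adgre1, Lyz2 and Mertk had no WT peak. None was found in either table for 3 T cell, 3 B cell and 1 plasmacytoid cell markers. Of the other markers, 1 of 3 stromal genes had a WT peak, with a summed level of 0.721 to 1.11 tags per 10000 against 5.74 to 7.93 for the macrophage genes. Among NCoR f/f peaks, 1 neutrophil gene (Mpo, 0.107 to 0.157), 1 erythroid gene (Klf1, 0.275 to 0.376) and 1 stromal gene (Pdgfrb, 0.235 to 0.403) had a peak, against 8.10 to 8.73 for the macrophage genes, and their part in the results was not tested.

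Glycolysis splits glucose into pyruvate in the cytosol and yields ATP without oxygen. HIF-1, a pair of the oxygen-labile Hif1a and the stable Arnt, drives many of its genes when oxygen is low. Egln1, Egln2 and Egln3 are the prolyl hydroxylases that mark HIF alpha subunits for the ubiquitin ligase of Vhl, and HIF-1 binds the hypoxia response element, whose core is ACGTG or GCGTG. Macrophages activated through TLR4 are known to raise glycolysis and to stabilise Hif1a at normal oxygen.

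The members' WT peaks were mostly promoters. Within 2 kb of a TSS lay 27 of the 39 peaks (69.2%, against 51.02% of all WT peaks with a distance), and 12 were distal. A match to ACGTG on either strand was counted in the 200 bp at the centre of each peak, on the mm10 sequence. It was present in 14 of the 27 member promoter peaks, or 51.9%, against 21.7% of the 4906 promoter peaks of the table that were read. The other core, GCGTG, was in 44.4% of the member promoters and in 49.0% of all. The median GC content was 66.3% in the member promoter peaks and 65.0% in all promoter peaks. In the distal peaks ACGTG was in 4 of 12 members (33.3%, against 13.6% of 4621). TGANTCA, the AP-1 site, was in 6 of the 12 distal members (50%, against 32.6%) and in 0 of the 27 promoters (against 4.67%). CACGTG, an E-box that holds ACGTG on both strands and is counted in it, was in 2 of 27 promoters (7.41%, against 8.03%). In the 12 distal members GCGTG was in 4 (33.3%, against 15.3%) and CACGTG in 1 (8.33%, against 4.33%). Letters of other factors were in at most 1 of these 12 peaks, and no difference from all distal peaks is read from so few. PU.1 sites were in 0 of the 12 (against 12.1%), NF-kB sites in 0 (against 6.12%) and C/EBP sites in 1 (8.33%, against 16.25%).

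In the NCoR f/f table, with more peaks, ACGTG was in 22 of its 54 member promoter peaks, or 40.7%, against 19.7% of 11820 promoter peaks. In its 39 distal member peaks, ACGTG was in 8 (20.5%, against 12.6% of 12800) and TGANTCA in 12 (30.8%, against 26.4%). In the 300 bp promoter windows of RefSeq on GRCm38.p6, which has the coordinates of mm10, it was in 29 of the 52 windows found for 37 member genes (55.8%), against 19.6% of 32851 windows of all genes. A match is a run of letters and was not tested for binding.

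Of the WT member peaks, 5 held more than 1 match to ACGTG, at Pfkfb3 (4), Egln2 at -17 bp (3), Pgk1 (2), Bnip3 (2) and Gpi1 at -3855 bp (2). Those of Pgk1, Bnip3 and Pfkfb3 are shown here on the + strand of mm10 as examples, with capitals for ACGTG on either strand. The stretches are chrX:106186876-106187099 at Pgk1, chr7:138909507-138909681 at Bnip3 and chr2:11535448-11535747 in an intron of Pfkfb3. Pgk1 encodes phosphoglycerate kinase, Bnip3 a mitophagy receptor, and Pfkfb3 the enzyme that makes fructose 2,6-bisphosphate, the activator of phosphofructokinase.
Pgk1: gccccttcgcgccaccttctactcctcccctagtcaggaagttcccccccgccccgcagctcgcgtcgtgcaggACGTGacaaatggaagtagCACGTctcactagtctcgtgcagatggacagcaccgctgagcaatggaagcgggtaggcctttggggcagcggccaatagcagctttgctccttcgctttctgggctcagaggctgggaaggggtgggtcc
Bnip3: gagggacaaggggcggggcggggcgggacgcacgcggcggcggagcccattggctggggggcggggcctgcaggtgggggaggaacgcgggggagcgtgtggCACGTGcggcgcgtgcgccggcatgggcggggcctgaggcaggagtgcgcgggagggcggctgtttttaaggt
Pfkfb3: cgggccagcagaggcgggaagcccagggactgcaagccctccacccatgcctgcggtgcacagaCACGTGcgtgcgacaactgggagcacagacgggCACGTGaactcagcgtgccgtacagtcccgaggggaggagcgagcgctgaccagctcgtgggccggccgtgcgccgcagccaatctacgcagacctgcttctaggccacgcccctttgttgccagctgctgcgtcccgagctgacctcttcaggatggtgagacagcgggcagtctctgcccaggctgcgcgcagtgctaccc

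The Bnip3 and Pfkfb3 stretches hold ACGTG as CACGTG, while the 2 matches of Pgk1 lie apart and on opposite strands. The 2 intronic peaks below were picked because each had 3 tags in both Veh libraries and holds the AP-1 letters, given in capitals. The authors list both only in the set of peaks found with RGFP966 + KLA. Nothing is therefore read from their low Veh tags or from the AP-1 letters beside them. The Egln3 promoter peak also had 3 and 3 tags in Veh and has no AP-1 match. They lie at chr13:6618806-6619012 in intron 7 of Pfkp, the platelet type of phosphofructokinase, and at chr4:119125989-119126242 in intron 2 of Slc2a1, the glucose transporter GLUT1.
Pfkp: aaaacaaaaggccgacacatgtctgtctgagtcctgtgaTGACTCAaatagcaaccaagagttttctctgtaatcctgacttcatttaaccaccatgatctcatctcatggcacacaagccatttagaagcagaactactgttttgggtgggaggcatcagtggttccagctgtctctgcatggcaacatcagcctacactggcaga
Slc2a1: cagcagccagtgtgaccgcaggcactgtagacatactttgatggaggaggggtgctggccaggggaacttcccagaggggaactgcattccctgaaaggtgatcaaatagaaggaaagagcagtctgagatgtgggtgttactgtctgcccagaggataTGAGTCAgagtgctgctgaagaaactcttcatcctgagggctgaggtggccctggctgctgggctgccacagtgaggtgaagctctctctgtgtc

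The 3 promoter peaks called between conditions are shown next, trimmed to the part outside the exons of curated mRNAs, at chr12:54203875-54204033 (Egln3), chr7:27166803-27166924 (Egln2) and chr7:34230337-34230522 (Gpi1). The Egln2 stretch has 1 match to ACGTG, in capitals, and the Egln3 and Gpi1 stretches have 0 matches to ACGTG or to TGANTCA.
Egln3: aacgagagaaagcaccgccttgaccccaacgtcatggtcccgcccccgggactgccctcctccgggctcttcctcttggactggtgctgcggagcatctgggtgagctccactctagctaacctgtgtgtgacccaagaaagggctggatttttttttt
Egln2: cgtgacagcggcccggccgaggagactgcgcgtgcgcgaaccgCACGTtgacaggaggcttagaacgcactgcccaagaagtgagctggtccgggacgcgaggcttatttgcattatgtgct
Gpi1: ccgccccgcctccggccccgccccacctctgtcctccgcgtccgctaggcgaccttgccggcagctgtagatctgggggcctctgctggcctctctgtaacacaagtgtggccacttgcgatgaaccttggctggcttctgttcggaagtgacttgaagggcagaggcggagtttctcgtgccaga

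Of the 15 genes without a WT peak, 14 had a peak in the NCoR f/f table, namely Egln1, Vhl, Vegfa, Slc2a6, Slc16a1, Slc16a3, Hk3, Pfkl, Pfkm, Tpi1, Ldha, Pdk1, Acod1 and Nos2. Only Aldoc, an aldolase, had none in either table. Every one of the 39 WT member peaks overlapped an NCoR f/f peak. The deeper table thus held all loci of the shallower one. Its peaks also came from KLA and NCoR knockout sets, and 67 of its 93 member peaks were in the NCoR f/f Veh set. The parts of depth and of these sets in the larger count were not tested. A missing WT peak says that no peak was called in the WT sets, not that the locus was closed. One further WT peak of Hif1a and 3 NCoR f/f peaks (1 of Hif1a and 2 of Pfkp) lay over 100 kb from the TSS and were left out.

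By role, a WT peak was found at 4 of 6 genes of oxygen sensing and HIF (8 peaks), 2 of 5 transporters (5 peaks), 7 of 11 enzymes of upper glycolysis (12 peaks), 5 of 6 of lower glycolysis (5 peaks), 2 of 4 that set the fate of pyruvate (3 peaks), 5 of 6 further hypoxia targets (5 peaks) and 1 of 3 genes of macrophage metabolism (1 peak, of Arg1). In the NCoR f/f table these counts were 6 of 6, 5 of 5, 10 of 11, 6 of 6, 4 of 4, 6 of 6 and 3 of 3.

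**Figure D1:**
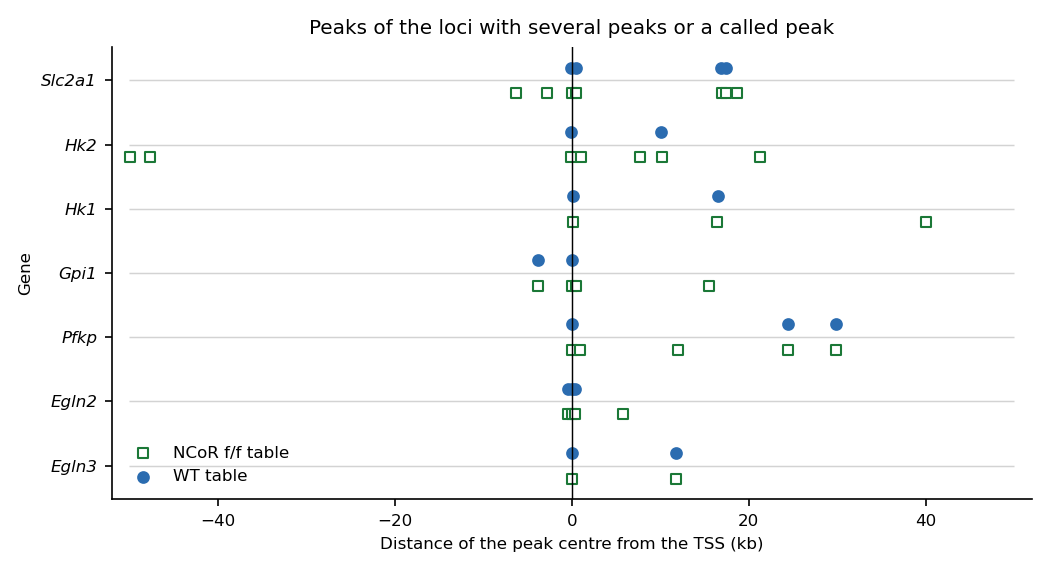
Peaks at 7 loci by the distance of their centre from the TSS in kb, with circles for the WT table and squares for the NCoR f/f table. Slc2a1 had 4 WT and 7 NCoR f/f peaks, Hk2 2 and 7, and Pfkp 3 and 5, and each WT peak has a square next to it.

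The summed tags of the 39 member peaks took overlapping shares of the tags in the 3 conditions. They held 40.02 and 31.5 tags per 10000 in Veh (516 and 381 tags), 38.3 and 36.0 in KLA (716 and 420 tags) and 37.5 in each RGFP966 + KLA library (759 and 728 tags). The Veh libraries lay at the top and at the bottom of all 6, so the conditions overlapped. On the log2 scale the ratio of mean shares was 0.06 (SD between libraries 0.18) when KLA was set against Veh. It was 0.01 (SD 0.04) when RGFP966 + KLA was set against KLA, and 0.07 (SD 0.17) when it was set against Veh. No test was made on this sum, because the members were chosen with results of these data known.

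Promoter and distal members are given separately. The 27 promoter peaks held 32.9 and 25.2 tags per 10000 in Veh, 28.6 and 28.8 in KLA, and 27.8 and 25.7 in RGFP966 + KLA. The 12 distal peaks held 7.13 and 6.28 in Veh, 9.68 and 7.20 in KLA, and 9.68 and 11.8 in RGFP966 + KLA. Both KLA and both RGFP966 + KLA libraries were above both Veh libraries at the distal members, by a small margin for KLA. Of these 12 peaks, 10 are not listed in the Veh set and entered the table through treated conditions, so nothing is read from Veh being lowest. The summed share of all distal peaks of the table moved in the same direction. It went from 39.7% and 41.6% of the tags in peaks in Veh to 42.5% and 43.5% in KLA and 44.1% and 43.9% in RGFP966 + KLA.

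**Figure D2:**
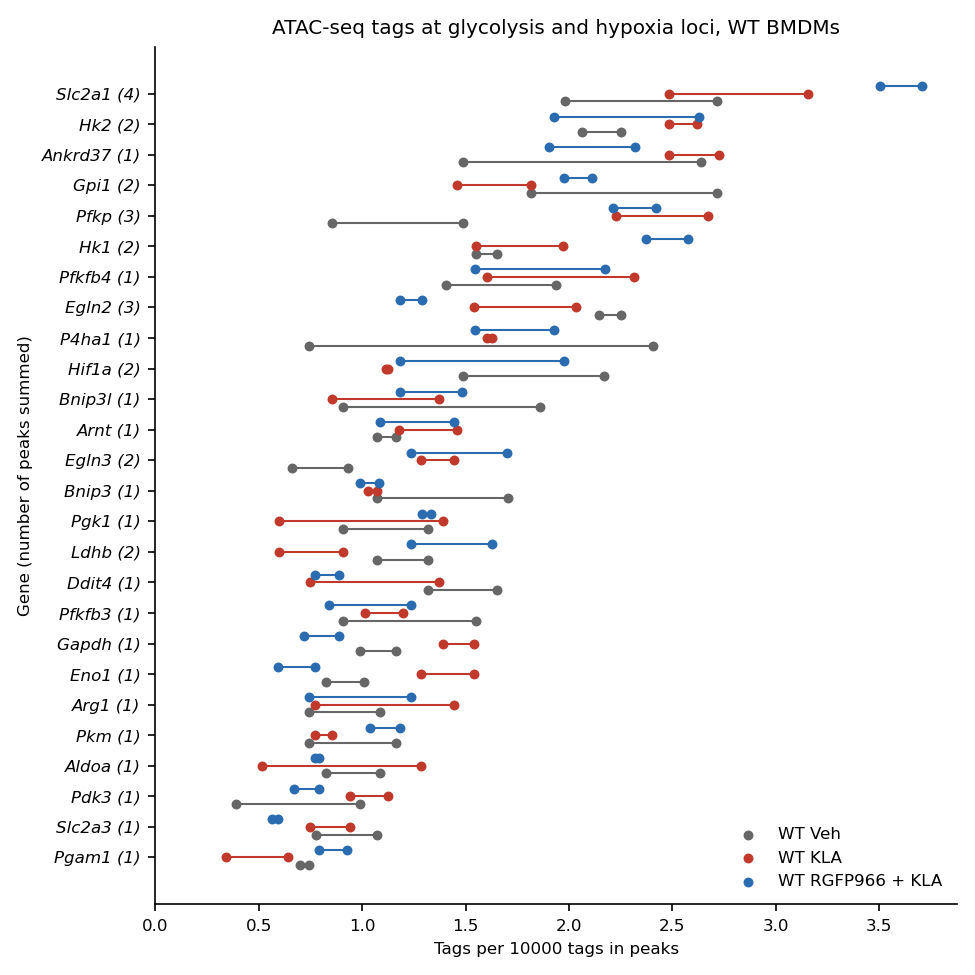
Tags per 10000 tags in peaks (horizontal) at the 26 loci with a WT peak, summed over the number of peaks in brackets, with a point per library and a line between the 2 libraries of a condition. The Pfkp points of Veh (0.853 and 1.49) lie below those of KLA (2.23 and 2.67). The libraries of KLA and Veh do not overlap at 6 loci that are higher in KLA and 5 that are lower. These are 23.1% and 19.2% of the 26, against 23.7% and 23.3% of all loci.

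The loci with the highest mean level were Slc2a1, Hk2, Ankrd37, Gpi1 and Pfkp. Slc2a1, summed over 4 peaks, had 35 and 24 tags in Veh, 59 and 29 in KLA, and 71 and 72 in RGFP966 + KLA. Hk2, the inducible hexokinase, summed over 2 peaks, had 29 and 25, 49 and 29, and 39 and 51 tags. Ankrd37, a HIF target with ankyrin repeats, had 34 and 18, 51 and 29, and 47 and 37 tags in 1 peak. These sums grow with the number of peaks and are not compared between genes.

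Per kb of peak, the member peaks can be set in order. Averaged over the 6 WT libraries, the highest were the promoters of P4ha1, a subunit of collagen prolyl hydroxylase (6.17 tags per 10000 and kb, with libraries from 2.79 to 9.04), Ankrd37 (6.16, from 4.05 to 7.43), Hk2 (5.41, from 3.93 to 6.44), Pfkfb4, a relative of Pfkfb3 (4.84, from 3.71 to 6.12) and Arnt (4.76, from 4.15 to 5.62). The ranges of each of these neighbours overlapped. The lowest were the promoter of Eno1, the enolase (1.80, from 1.06 to 2.77), and a Hif1a peak at -20742 bp from the TSS (1.62, from 0.779 to 3.12). The median member peak had 2.85, against 3.05 for all WT peaks.

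The peaks nearest the TSS of the best-known genes had few tags and no clear order of conditions. Hif1a had 24 and 16 tags in Veh, 18 and 10 in KLA, and 27 and 14 in RGFP966 + KLA at its promoter. Slc2a1 had 15 and 9, 16 and 7, and 16 and 25 tags, and Hk2 had 24 and 17, 34 and 20, and 23 and 28 tags. Per 10000 tags in peaks, Hif1a stood at 1.86 and 1.32 in Veh against 0.962 and 0.857 in KLA, so that the KLA libraries lay below the Veh libraries without passing the test. Pgk1 had 17 and 11, 26 and 7, and 27 and 25 tags at its promoter, and Pkm, the pyruvate kinase, had 15 and 9, 16 and 9, and 21 and 23. The nearest WT peak of Arg1, which splits arginine, was at -2859 bp from its TSS and had 14 and 9, 27 and 9, and 15 and 24 tags. The nearest WT peak of Pfkfb3 was the intronic one shown above, with 20 and 11, 19 and 14, and 17 and 24 tags. At Slc2a1, Hk2, Pgk1, Pkm, Arg1 and Pfkfb3 the KLA libraries overlapped the Veh libraries in level.

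The remaining loci of oxygen sensing differed in how their libraries were ordered. Arnt, the stable partner of Hif1a, had 15 and 13 tags in Veh, 22 and 17 in KLA, and 22 and 28 in RGFP966 + KLA over 1 peak. Hif1a as a locus had 28 and 18 tags in Veh, 21 and 13 in KLA, and 40 and 23 in RGFP966 + KLA over 2 peaks. Egln3 had 12 and 8 tags in Veh, 27 and 15 in KLA, and 25 and 33 in RGFP966 + KLA over 2 peaks, and its Veh libraries were the lowest of the 6 per 10000 tags in peaks. Egln2 had 29 and 26 tags in Veh, 38 and 18 in KLA, and 24 and 25 in RGFP966 + KLA over 3 peaks, with the lowest levels in RGFP966 + KLA.

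Among the transporters and the enzymes of upper glycolysis, Slc2a3, the transporter GLUT3, had 10 and 13 tags in Veh, 14 and 11 in KLA, and 12 and 11 in RGFP966 + KLA over 1 peak. Hk1 had 20 and 20 tags in Veh, 29 and 23 in KLA, and 48 and 50 in RGFP966 + KLA over 2 peaks. Pfkfb4 had 25 and 17 tags in Veh, 30 and 27 in KLA, and 44 and 30 in RGFP966 + KLA over 1 peak. At Hk1 both RGFP966 + KLA libraries were the highest of the 6 per 10000 tags in peaks, and at Slc2a3 they were the lowest. Aldoa, the main aldolase, had 14 and 10 tags in Veh, 24 and 6 in KLA, and 16 and 15 in RGFP966 + KLA over 1 peak, and per 10000 tags in peaks both RGFP966 + KLA libraries were below both Veh libraries, without a call.

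In lower glycolysis, Gapdh, which oxidises glyceraldehyde 3-phosphate, had 15 and 12 tags in Veh, 26 and 18 in KLA, and 18 and 14 in RGFP966 + KLA over 1 peak. Eno1 had 13 and 10 tags in Veh, 24 and 18 in KLA, and 12 and 15 in RGFP966 + KLA over 1 peak. Both were highest in KLA and lowest in RGFP966 + KLA per 10000 tags in peaks, without a call. Pgam1, the phosphoglycerate mutase, had 9 and 9 tags in Veh, 12 and 4 in KLA, and 16 and 18 in RGFP966 + KLA over 1 peak. Ldhb had 17 and 13 tags in Veh, 17 and 7 in KLA, and 33 and 24 in RGFP966 + KLA over 2 peaks, and Pdk3, a kinase that inhibits pyruvate dehydrogenase, had 5 and 12 tags in Veh, 21 and 11 in KLA, and 16 and 13 in RGFP966 + KLA over 1 peak. At Ldhb both KLA libraries were the lowest per 10000 tags in peaks, without a call.

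Among the 5 further hypoxia targets with a WT peak, only Bnip3 had Veh and KLA levels that did not overlap. Over all loci, 23.7% were higher in KLA without overlap and 23.3% were lower. Bnip3 had 22 and 13 tags in Veh, 20 and 12 in KLA, and 20 and 21 in RGFP966 + KLA over 1 peak. Bnip3l, its relative in mitophagy, had 24 and 11 tags in Veh, 16 and 16 in KLA, and 30 and 23 in RGFP966 + KLA over 1 peak. P4ha1 had 31 and 9 tags in Veh, 30 and 19 in KLA, and 39 and 30 in RGFP966 + KLA over 1 peak, with the highest and the lowest level both in Veh. The spread between the Veh libraries was thus as wide as that between conditions at P4ha1.

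KLA was compared with Veh to ask where accessibility changed with TLR4 activation. Of the 39 member peaks, 1 rose and 0 fell at an adjusted p under 0.05 and over 2-fold, by the quasi-likelihood test of edgeR with Benjamini-Hochberg adjustment over all 9698 peaks. Over all peaks 3.3% rose and 1.73% fell. At an unadjusted p under 0.05 were 7 members, where 19.5% of all peaks were. The libraries of the conditions did not overlap at 10 members that were higher and 7 that were lower, against 25.3% and 22.6% of all peaks. DESeq2 called 0 of the 9698 peaks, with 570 of them and 1 member at an unadjusted p under 0.05. The median log2 change was 0.04 over the members, between -1.48 and 1.91, and 0.02 over all peaks.

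The peak that rose with KLA was the promoter of Egln3, the prolyl hydroxylase known as PHD3, itself a HIF target. It had 3 and 3 tags in Veh, 18 and 10 in KLA, and 9 and 14 in RGFP966 + KLA. Per 10000 tags in peaks these were 0.233 and 0.248, 0.962 and 0.857, and 0.444 and 0.721, so that both KLA libraries were above both Veh libraries, with RGFP966 + KLA between them. The log2 change was 1.91 ± 0.56 (SE, n = 2 against 2, edgeR adjusted p = 0.0268). The ratio of the summed tags was 3.84, with an exact interval at 95% of 1.56 to 11.3 that covers counting error only. The authors' table lists this peak in the KLA set of peaks only, so it entered the table through the condition where it was high. The call was lost without Veh library 1 (adjusted p = 0.167), without Veh library 2 (0.123) and without KLA library 1 (0.178), and with library sizes from all tags (0.0675).

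**Figure D3:**
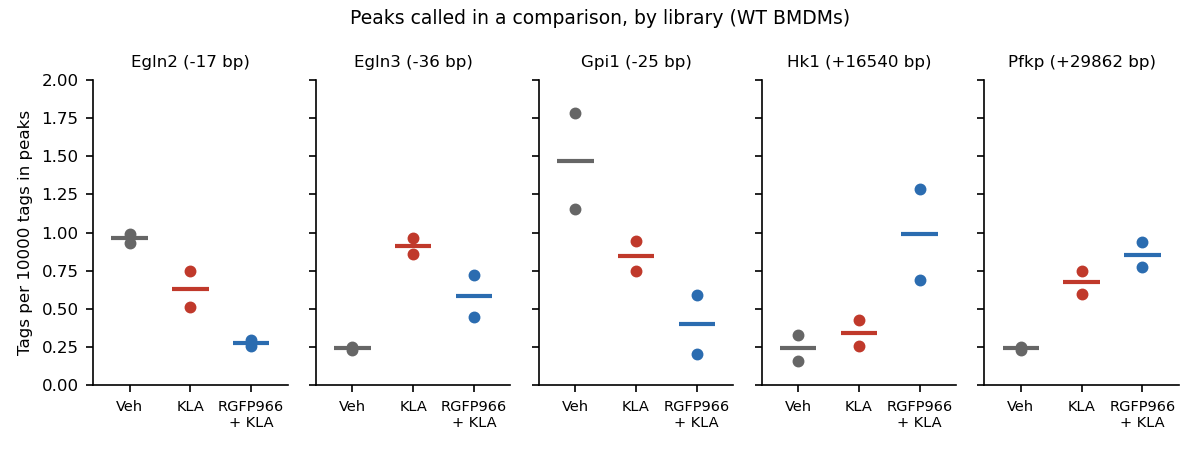
Tags per 10000 tags in peaks (vertical) at the 5 peaks called in a comparison, with a point per library and a line at the mean of each condition of WT BMDMs. The Egln2 and Gpi1 promoter peaks are lowest in RGFP966 + KLA, and the Egln3, Hk1 and Pfkp peaks are lowest in Veh.

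The next peaks by p did not pass. A peak at -902 bp from the TSS of Ldhb, the heart type of lactate dehydrogenase, had 14 and 7 tags in Veh, 5 and 4 in KLA and 19 and 11 in RGFP966 + KLA, a log2 change of -1.48 ± 0.55 with KLA (edgeR adjusted p = 0.0954). The Pfkp peak in intron 7 had 3 and 3, 14 and 7, and 19 and 15 tags, and its log2 change was 1.50 ± 0.60 (adjusted p = 0.125). The Slc2a1 peak 17370 bp after the TSS had 3 and 3, 14 and 5, and 14 and 15 tags, with a change of 1.35 ± 0.61 (adjusted p = 0.193). The promoter of Gpi1, the isomerase of glucose 6-phosphate, changed by -0.84 ± 0.38 (adjusted p = 0.196). The other 34 member peaks had larger p-values.

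Summed over its 3 peaks, Pfkp was the 1 member locus that rose. None of these peaks is listed in the Veh set, and the 2 intronic ones are in the RGFP966 + KLA set only, so the sum holds regions that entered the table through treated conditions. It had 11 and 18 tags in Veh, 50 and 26 in KLA, and 49 and 43 in RGFP966 + KLA. The KLA libraries were above the Veh libraries, with a log2 change of 1.10 ± 0.31 (edgeR adjusted p = 0.0177 over 6598 loci). It was 1 of 26 member loci, where 3.64% of all loci were called in either direction. The call was lost without Veh library 1 (0.75, adjusted p = 0.315), without KLA library 1 (0.94, adjusted p = 0.275), for peaks within 2 kb alone (0.85, adjusted p = 0.393) and with library sizes from all tags (adjusted p = 0.296), and DESeq2 called 0 of the 26 loci, with 1 at an unadjusted p under 0.05.

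RGFP966 + KLA was compared with KLA to ask what the HDAC3 inhibitor changed under KLA. No member peak passed, at 0 higher and 0 lower of 39, where 0.237% of all peaks rose and 0.103% fell in the edgeR test. At an unadjusted p under 0.05 were 9 members, where 13.8% of all peaks were. The libraries did not overlap at 10 members that were higher and 9 that were lower, against 25.7% and 20.1% of all peaks. DESeq2 called 0 of all peaks, with 144 of them and 0 members at an unadjusted p under 0.05. None of the 26 member loci passed, where 0.288% of all loci did. The median SE of a member's log2 change was 0.37, so a 2-fold change of a single peak was hard to detect.

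The 5 smallest p-values here had changes in both directions. The peak in intron 4 of Hk1, the housekeeping hexokinase, had 8 and 3 tags in KLA and 14 and 25 in RGFP966 + KLA (log2 change 1.42 ± 0.46, edgeR adjusted p = 0.125). The promoter of Eno1 had 24 and 18 against 12 and 15 tags (-1.01, adjusted p = 0.1502), and that of Gapdh had 26 and 18 against 18 and 14 (-0.84, adjusted p = 0.227). A peak at -3855 bp from the TSS of Gpi1 had 20 and 6 against 28 and 37 tags (0.93, adjusted p = 0.175), and the Ldhb peak at -902 bp had 5 and 4 against 19 and 11 (1.33, adjusted p = 0.213). For these 5 peaks the libraries of both conditions did not overlap, yet none passed after adjustment. Of the 2 conditions, each peak is listed only in the set of the one where it was higher, so nothing is read from the lack of overlap.

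RGFP966 + KLA against Veh gave the most member calls. Here 2 peaks rose and 2 fell, where 6.89% of all peaks rose and 2.99% fell. At an unadjusted p under 0.05 were 11 members, where 25.4% of all peaks were. The libraries did not overlap at 14 members that were higher and 8 that were lower, against 30% and 24.7% of all peaks. DESeq2 called 0 of all peaks, with 742 of them and 4 members at an unadjusted p under 0.05. None of the 26 loci passed both thresholds, where 7.81% of all loci did. This comparison shares its Veh libraries with the first and its RGFP966 + KLA libraries with the second.

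The promoter peaks that fell were those of Gpi1 and Egln2. The Gpi1 promoter had 23 and 14 tags in Veh, 14 and 11 in KLA, and 12 and 4 in RGFP966 + KLA. Per 10000 tags in peaks these were 1.78 and 1.16, 0.749 and 0.942, and 0.593 and 0.206, with all Veh libraries on top. The log2 change against Veh was -1.86 ± 0.42 (edgeR adjusted p = 0.00237), and it was -1.502 without Veh library 1 (adjusted p = 0.0984) and -1.31 without RGFP966 + KLA library 2 (0.0770), where the call was lost. The table lists it in the Veh and KLA sets and not in the RGFP966 + KLA set, so it entered the table through the conditions where it was higher.

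Egln2, the hydroxylase known as PHD1, had 12 and 12 tags in Veh, 14 and 6 in KLA, and 6 and 5 in RGFP966 + KLA at a promoter peak at -17 bp. Both RGFP966 + KLA libraries, at 0.296 and 0.257 tags per 10000, were below both Veh libraries, at 0.931 and 0.991. The log2 change was -1.76 ± 0.48 (edgeR adjusted p = 0.0107). The table lists the peak in the Veh set only, so it entered the table through the condition where it was high. The call was lost without either Veh or either RGFP966 + KLA library, at adjusted p-values of 0.0663 to 0.0841. The 2 neighbouring Egln2 peaks, at -393 and 305 bp, changed by 0.74 ± 0.53 (adjusted p = 0.401) and -1.30 ± 0.47 (adjusted p = 0.0610), so the peaks of this promoter did not all move together. Summed over the 3 peaks, the locus changed by -0.83 ± 0.29 (adjusted p = 0.0491), under the 2-fold threshold.

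The distal peaks that rose were intronic. The Hk1 peak in intron 4, 16540 bp after the TSS, had 2 and 4 tags in Veh, 8 and 3 in KLA, and 14 and 25 in RGFP966 + KLA. Its levels were 0.155 and 0.330, 0.428 and 0.257, and 0.691 and 1.29 tags per 10000, so that only RGFP966 + KLA stood apart from Veh. The log2 change was 2.00 ± 0.54 (edgeR adjusted p = 0.0100), and the ratio of summed tags was 4.10 with an exact 95% interval of 1.72 to 11.8. The peak lies in a LINE repeat, at which reads can map to several places, and how such reads were treated is not given in the sources used here. Of the 216 WT peaks annotated to a LINE repeat, 18.1% rose in this comparison. The call was lost without Veh library 1 (adjusted p = 0.159), without RGFP966 + KLA library 2 (0.198) and with loess offsets (0.232).

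The Pfkp peak in intron 7, 29862 bp after the TSS, stood at 0.233 and 0.248 tags per 10000 in Veh, 0.749 and 0.600 in KLA, and 0.938 and 0.772 in RGFP966 + KLA. Both treated conditions lay above Veh in every library. The log2 change against Veh was 1.80 ± 0.54 (edgeR adjusted p = 0.0217) and the ratio of summed tags was 3.57, with an exact 95% interval of 1.48 to 10.4. The Hk1 and Pfkp peaks are both listed in the RGFP966 + KLA set only. Each thus entered the table through the condition where it was high, and nothing is read from the Veh libraries being lower. The Pfkp call was lost without any single Veh or RGFP966 + KLA library (adjusted p-values of 0.0537 to 0.145), with loess offsets (0.103) and with GC offsets (0.0584), which were chosen after the data were seen. Over its 3 peaks the Pfkp locus changed by 0.99 ± 0.30 (adjusted p = 0.0187), just under 2-fold.

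The Gpi1 peak at -3855 bp had a change of the opposite sign to the promoter of the same gene. It had 12 and 8 tags in Veh, 20 and 6 in KLA, and 28 and 37 in RGFP966 + KLA, a log2 change of 1.03 ± 0.36 (edgeR adjusted p = 0.0538) that did not pass. The locus as a sum, with 35 and 22, 34 and 17, and 40 and 41 tags, changed by -0.16 ± 0.26 (adjusted p = 0.760). The Slc2a1 peak at 17370 bp changed by 1.58 ± 0.56 (adjusted p = 0.0544), and its locus by 0.61 ± 0.23 (adjusted p = 0.0673). The Gpi1 peak at -3855 bp and this Slc2a1 peak are also listed in the RGFP966 + KLA set only.

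Across the 12 distal members the log2 change against Veh was above 0 at 10 in RGFP966 + KLA and at 8 in KLA, with medians of 0.93 and 0.47. The medians of all 4716 distal peaks were 0.24 and 0.13. For the 27 promoter members the medians were 0.10 and -0.01, against -0.06 and -0.05 for all 4913 promoters. Of all distal peaks, 11.98% rose in RGFP966 + KLA against Veh, and 2 of the 12 distal members did. Because 8 of the 12 distal members are listed in the RGFP966 + KLA set only, they entered the table through the condition where they were high, and nothing is read from their medians.

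**Figure D4:**
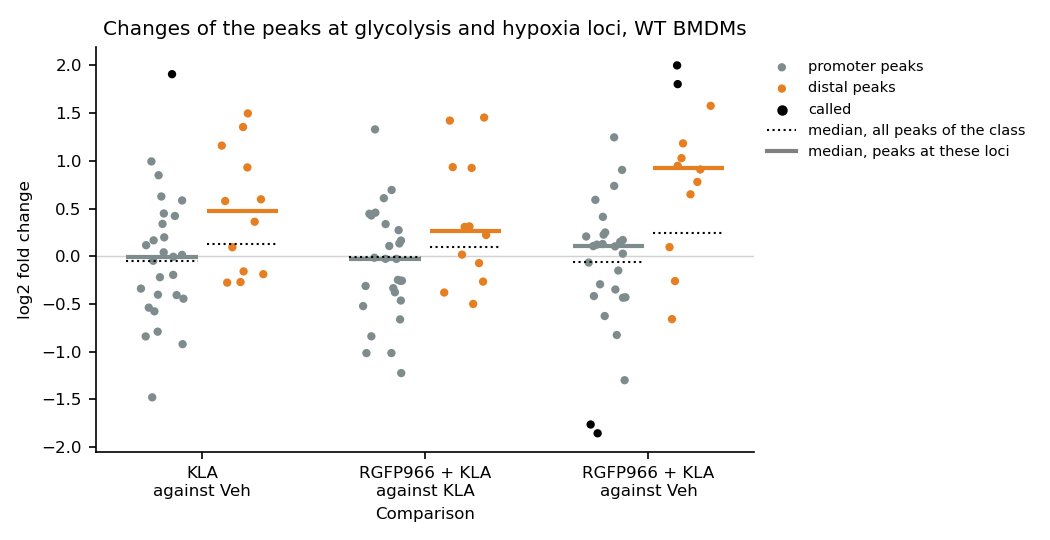
The log2 fold change (vertical) of the 39 peaks at these loci in each comparison, split into promoter and distal peaks, with black points for called peaks. Thick lines are medians of the peaks at these loci and dotted lines are medians of all peaks of the class, and the distal medians are 0.47, 0.26 and 0.93 from left to right.

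The sets in which the authors' table lists the member peaks are given next. Of the 39 peaks, 18 were in the Veh set, 20 in the KLA set and 31 in the RGFP966 + KLA set. In the last set only were 13 (33.3%, against 29.99% of all WT peaks), in KLA only 3 (7.69%, against 7.60%) and in Veh only 2 (5.13%, against 8.25%), and 9 were in all 3 sets (23.1%, against 28.4% of all WT peaks). The RGFP966 + KLA libraries were also the deepest pair, and the part of depth in this count was not tested.

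The calls are also given by role, and with 1 to 12 peaks per role no pattern is read from them. Of the 8 peaks of oxygen sensing and HIF, 1 rose with KLA and 1 fell with RGFP966 + KLA against Veh, and of the 12 peaks of upper glycolysis 2 rose and 1 fell in the latter comparison. The 5 peaks of transporters, the 5 of lower glycolysis, the 3 at the fate of pyruvate, the 5 of further hypoxia targets and the 1 of macrophage metabolism had no call in any comparison. Over all peaks, 3.3% rose and 1.73% fell with KLA, and 6.89% rose and 2.99% fell with RGFP966 + KLA against Veh. In RGFP966 + KLA against KLA these shares were 0.237% and 0.103%. Among the hypoxia targets, the mitophagy receptors Bnip3 and Bnip3l, the mTOR inhibitor Ddit4, Ankrd37 and P4ha1, the log2 changes lay between -0.58 and 0.34 with KLA and between -0.83 and 0.12 with RGFP966 + KLA against Veh. The lowest of the latter was Ddit4, with 17 and 20 tags in Veh, 14 and 16 in KLA, and 18 and 15 in RGFP966 + KLA.

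In the NCoR f/f Veh libraries the member peaks together held 41.8 and 41.1 tags per 10000 (1555 and 2097 tags), so the 2 libraries differed little. Promoters made up 58.1% of the 93 member peaks, against 47.8% of all peaks of that table. The loci with the highest levels were Hk2 with 3.57 and 3.41 tags per 10000 over 7 peaks, Slc2a1 with 2.90 and 2.16 over 7, Pfkfb3 with 2.26 and 2.37 over 5, Gpi1 with 1.88 and 2.06 over 4, and Bnip3 with 1.83 and 1.82 over 2. Per kb of peak the Hk2 promoter led with 3.47 and 3.51 tags per 10000 and kb, higher than 98.1% of all peaks of the table, followed by the promoters of P4ha1 (2.75 and 3.17), Bnip3 (2.83 and 3.08), Ankrd37 (3.38 and 2.47) and Hif1a (2.53 and 3.13). The last 4 overlapped with each other. The median member peak had 1.28, against 1.09 for all peaks.

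**Figure D5:**
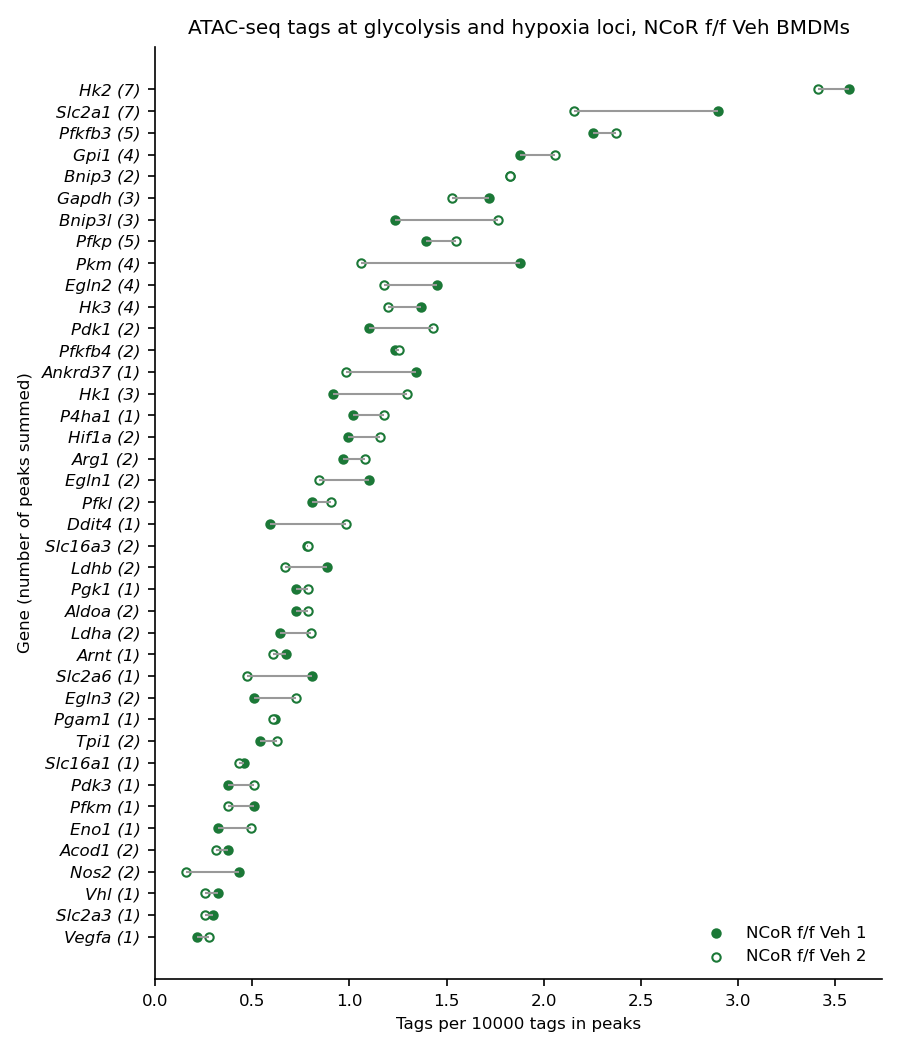
Tags per 10000 tags in peaks (horizontal) at the 40 loci with a peak in the NCoR f/f table, with a filled and an open point for the 2 Veh libraries and the number of summed peaks in brackets. Hk2 is highest in both libraries (3.57 and 3.41) and Vegfa lowest on average (0.215 and 0.275).

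The 14 loci without a WT peak lay mostly in the lower part of this order, with exceptions. Hk3, the hexokinase of myeloid cells, had 51 and 61 tags over 4 peaks, and Pdk1, which inhibits pyruvate dehydrogenase, had 41 and 73 over 2. Ldha, the muscle type of lactate dehydrogenase, had 10 and 24 tags at its promoter and 14 and 17 at a peak at -12359 bp. The peak nearest the TSS of Pfkfb3 had 23 and 41 tags. Vegfa, the vascular growth factor, had 8 and 14 tags at 1 peak, and Vhl had 12 and 13.

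The other NCoR f/f loci are given by their tags in the 2 libraries, which differ in depth. In oxygen sensing these were Hif1a 37 and 59 (2 peaks), Arnt 25 and 31 (1 peak), Egln1 41 and 43 (2 peaks), Egln2 54 and 60 (4 peaks) and Egln3 19 and 37 (2 peaks). Among transporters they were Slc2a3 11 and 13 (1 peak), Slc2a6 30 and 24 (1 peak), Slc16a1 17 and 22 (1 peak) and Slc16a3 29 and 40 (2 peaks). In upper glycolysis they were Hk1 34 and 66 (3 peaks), Pfkl 30 and 46 (2 peaks), Pfkm 19 and 19 (1 peak), Pfkp 52 and 79 (5 peaks), Pfkfb4 46 and 64 (2 peaks) and Aldoa 27 and 40 (2 peaks). The phosphofructokinase genes thus ranged from 1 to 5 peaks. In lower glycolysis they were Tpi1 20 and 32 (2 peaks), Gapdh 64 and 78 (3 peaks), Pgk1 27 and 40 (1 peak), Pgam1 23 and 31 (1 peak), Eno1 12 and 25 (1 peak) and Pkm 70 and 54 (4 peaks). At the fate of pyruvate they were Ldhb 33 and 34 (2 peaks) and Pdk3 14 and 26 (1 peak), and among hypoxia targets Bnip3l 46 and 90 (3 peaks), Ddit4 22 and 50 (1 peak), Ankrd37 50 and 50 (1 peak) and P4ha1 38 and 60 (1 peak). Arg1 had 36 and 55 tags over 2 peaks, the nearest at -2851 bp with 24 and 28.

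Acod1 and Nos2, which are inducible in macrophages, were among the 5 loci with the fewest tags per 10000. Acod1, which makes itaconate, had 5 and 5 tags at its promoter and 9 and 11 at a peak in exon 4. Nos2, the inducible nitric oxide synthase, had 6 and 5 tags at its promoter and 10 and 3 at a peak at -33528 bp. The table lists both Acod1 peaks, the Nos2 promoter and the Vegfa peak in the set of the KLA condition and not in that of Veh, so these are tags of unstimulated cells in regions chosen elsewhere. Of the 93 member peaks, 67 were in the Veh set of the NCoR f/f genotype. The other conditions enter that table only as sets of peaks, without tags of their own libraries.

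Other genes of these pathways were read from a list of 100 gene symbols, of which 49 had 72 WT peaks within 100 kb. With KLA, 0 of the 28 peaks of glycolysis and its neighbours, 2 of the 33 of the hypoxia response (both lower) and 0 of the 11 near arginine and citrate metabolism were called, where 3.3% of all peaks rose and 1.73% fell. RGFP966 + KLA against KLA gave 0, 1 (higher) and 0 calls, where 0.237% of all peaks rose and 0.103% fell. Against Veh it gave 3 (2 higher and 1 lower), 1 (lower) and 1 (higher), where 6.89% of all peaks rose and 2.99% fell. The medians of the log2 change lay between -0.28 and 0.07 in all 3 lists and comparisons.

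Bhlhe40, a repressor that hypoxia is known to induce, had the strongest change among them. Its peak at -669 bp had 18 and 18 tags in Veh, 4 and 2 in KLA, and 18 and 21 in RGFP966 + KLA. The KLA libraries lay far below the other 4, which overlapped. The log2 change was -2.82 ± 0.51 with KLA (edgeR adjusted p = 0.000323) and 2.27 ± 0.52 for RGFP966 + KLA against KLA (adjusted p = 0.0246). Both comparisons share the KLA libraries. The peak is listed in the Veh and the RGFP966 + KLA sets and not in the KLA set. It thus entered the table through the conditions where it was high, which favours a low level in KLA.

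The other called peaks are given with their tags. P4ha2, a collagen prolyl hydroxylase subunit, fell with KLA from 9 and 11 to 3 and 2 tags in an intragenic peak 12151 bp after the TSS (-2.23, edgeR adjusted p = 0.0145). In RGFP966 + KLA against Veh, peaks rose at Arg2, the mitochondrial arginase (2 and 2 to 17 and 16 tags, log2 change 2.32), at Rpe of the pentose phosphate path (4 and 3 to 23 and 14 tags, 1.71) and at Slc16a7, a monocarboxylate transporter (5 and 6 to 22 and 21 tags, 1.29). Peaks fell at Pcx, pyruvate carboxylase (39 and 22 to 21 and 19 tags, -1.27), and at Rbx1, a subunit of the Vhl ligase (15 and 15 to 12 and 7 tags, -1.31). Nampt of NAD salvage did not pass with KLA (5 and 2 to 19 and 8 tags, adjusted p = 0.0526). The Rpe, Slc16a7 and Arg2 peaks are listed in the RGFP966 + KLA set only, the P4ha2 peak in the Veh set only and the Nampt peak in the KLA set only, so each entered the table through the condition where it was high. The Rbx1 peak is listed in the Veh and KLA sets and not in the RGFP966 + KLA set, so its fall is not independent of how it was chosen. The Pcx peak is listed in all 3.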

How the data were processed

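ATAC-seq was measured in 8 libraries of BMDMs. Per the labels and the study's methods, the authors used Bowtie2 and mm10 to align single-end reads of size-selected short fragments. HOMER gave the peaks. The authors kept peaks of a condition by IDR (irreproducible discovery rate) between its 2 most correlated libraries, and merged the sets. They deposited raw counts of tags per merged peak, with at most 3 tags per position. The treatment of reads that map to several places is not given in the sources used here. The tables also hold the authors' peak annotation. DESeq2 is among the tools in the submitters' notes. Tags in peaks were 116733 to 202523 per WT library, so a peak with 10 tags is measured with a wide counting error.

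From these counts, edgeR 4.0.16 (R 4.3.3) was run with its quasi-likelihood test on the WT peaks that reached 4 tags in any library, which all 9698 did, with total tags in peaks as library sizes and the 6 WT libraries in 1 model. Loci were tested the same way on tags summed over a gene's peaks within 100 kb. A call needs a Benjamini-Hochberg adjusted p under 0.05 over all features and over 2-fold. Intervals of ratios are exact at 95% and cover counting error only. The spread was pooled over all peaks, with 51.8 prior degrees of freedom. The median trended dispersion was 9.77e-05, the same as for loci, and the common dispersion was 0.0052. The fit thus put the spread near counting error, and the trended value is not read as a measured spread between libraries. Each SE was derived from the log2 change and its F statistic. It can understate the spread at a single peak, as at P4ha1 with 31 and 9 tags in Veh and an SE of 0.34 for KLA against Veh. Motifs were read from mm10 with pysam 0.24.0. The scripts were tested on simulated data.

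The 41 members, the other gene lists and the tests were chosen with earlier results of these data known. Named in the text are peaks called in a comparison, the 5 smallest p of each, the peak nearest the TSS of 11 key genes, and the 5 highest loci of each table. Other pathway genes were named where called or among the 3 smallest p. The grouping by role was set by known function. Alternatives were TMM factors, library sizes from all tags, loess offsets (limma 3.58.1), DESeq2 1.42.0, other filters on tags, the replicate number as a block, the 4 libraries of a comparison alone, each library left out, adjusted p alone and a limit of 2 kb. GC offsets over 20 bins were added after the data were seen.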

Additional observations from a re-analysis of the deposited data

How the results depend on the processing

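Of 120 alternative values for the summed tags and the counts of calls, 92 stayed within the spread between libraries or 1.5 times the count and 28 moved. Counts were compared by number alone, so an equal count can hold other peaks. With loess offsets, RGFP966 + KLA against Veh kept 4 member peaks, but 1 was higher and 3 lower, where the main fit had 2 and 2. Of 246 alternative values for named peaks and loci, 209 kept their direction and side of the threshold, 30 lost a call, 7 gained one and 0 changed direction. The summed tags changed by 0.01 on the log2 scale in RGFP966 + KLA against KLA, by -0.033 with TMM factors, 0.20 with all tags and -0.10 within 2 kb. Against Veh the value within 2 kb was -0.12. With 1 library left out, the range was -0.11 to 0.24 for KLA against Veh, -0.031 to 0.059 for RGFP966 + KLA against KLA and -0.094 to 0.25 for RGFP966 + KLA against Veh, where the value without Veh library 1 was the highest in the first and the last. The cause was not tested.

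The count of member peaks called with KLA was 1, and 0 with all tags, loess offsets or DESeq2, and 0 to 1 with a library left out. In RGFP966 + KLA against Veh it was 4, and 0 with DESeq2, 2 within 2 kb and 0 to 5 with a library left out, with 0 without Veh library 1 or RGFP966 + KLA library 2 and 2 without Veh library 2 or RGFP966 + KLA library 1. In RGFP966 + KLA against KLA it was 0 under every alternative run. Member loci called with KLA were 1, and 0 with all tags or DESeq2 and 0 to 1 with a library left out. In RGFP966 + KLA against Veh they were 0, and 2 by adjusted p alone, 1 with loess offsets, 1 within 2 kb and 0 to 1 with a library left out.

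With the replicate block, 1, 0 and 5 member peaks were called in the 3 comparisons, and 558, 56 and 1036 of all peaks, against 488, 33 and 958 without it. The deviations of same-numbered libraries correlated at 0.07, 0.03 and 0.03 over 3402 peaks, so the numbers do not pair the libraries. The block added the Gpi1 peak at -3855 bp (adjusted p = 0.0349).

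Over all peaks, the share of calls that were higher was 65.6%, 69.7% and 69.7% in the 3 comparisons. It was 63.8%, 59.5% and 63.9% with TMM factors, 62.0%, 88.7% and 82.8% with all tags, and 46.0%, 21.98% and 38.9% with loess offsets. All-tag library sizes moved the median log2 change of all peaks from 0.03 to 0.21 in RGFP966 + KLA against KLA. DESeq2 called 0 of all peaks in each comparison. With 10 to 17 tags in the median peak, changes of single peaks under 2-fold were mostly not detectable at this depth.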
